A study of Mus musculus with 27 samples.

Results

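A set of 10 immediate early genes of the mouse ventricle is described here across loss and gain of MBNL1 and across postnatal age. The members, Fos, Fosb, Jun, Junb, Egr1, Egr2, Egr3, Atf3, Ier2 and Btg2, were taken by symbol from a table of 55487 Ensembl genes, and all 10 were found. The table came from RNA sequencing of 27 ventricle libraries in 7 groups, which ask how MBNL1, a protein that binds RNA and controls its splicing and decay, shapes expression after birth. Adult mice of postnatal day 60 (P60) gave 9 libraries labelled KO, for MBNL1 loss of function, of which 5 were taken 7 days after knockout beside 4 controls and 4 were taken at 14 days beside 3 controls. Pups of P7 gave 4 libraries labelled Tg, for MBNL1 gain of function, beside 3 controls. Pups of P1 gave 4 controls. How knockout was brought about, which part of Mbnl1 is deleted, which promoter drives the transgene, any Cre driver, the sex, and whether controls carry any allele or agent of the models are not given in the sources used here. No label says that libraries of 1 group are from different animals. The p-values therefore reflect only how far these samples spread, part of which may be technical.

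Immediate early genes are transcribed within minutes of a stimulus such as a growth factor, stretch, calcium entry or injury, from transcription factors that are already present in the cell, and most of their mRNAs are short-lived. The products of Fos, Fosb, Jun and Junb pair into the transcription factor AP-1, those of Egr1, Egr2 and Egr3 are zinc finger transcription factors, and Atf3 is a stress-induced factor related to both AP-1 and CREB. Ier2 encodes a small nuclear protein of the early response, and Btg2 an antiproliferative protein that recruits the deadenylase that shortens mRNA tails. In the heart the class is known for its response to pressure overload and ischaemia.

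The 200 bases before the start of 3 members are printed because they hold the best known inputs of the class, the CArG box bound by serum response factor and the cyclic AMP response element (CRE, TGACGTCA) bound by CREB and ATF proteins. They come from RefSeq on GRCm38.p6, run 5′ to 3′ on the gene's strand, and capitals mark the matches. For Egr2 the windows of 5 annotated starts were given, and the printed one is the first that holds both matches. Window 1 holds neither, window 2 holds a CArG box without a CRE core, and windows 3 to 5 overlap and hold both. In this Egr2 promoter (chr10:67537669-67537868, plus strand) the capitals are a CArG box from base -72 to -63 before the start and the core of the CRE (TGACGT, here on the other strand) from -56 to -51. In the Fos promoter (chr12:85473690-85473889, plus strand) they are a CRE core from -66 to -61, and in the Btg2 promoter (chr1:134079156-134079355, minus strand) a full CRE from -166 to -159.
Egr2: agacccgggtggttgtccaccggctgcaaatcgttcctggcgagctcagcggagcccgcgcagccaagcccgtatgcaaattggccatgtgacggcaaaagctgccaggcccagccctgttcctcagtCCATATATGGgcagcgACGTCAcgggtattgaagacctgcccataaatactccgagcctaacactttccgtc
Fos: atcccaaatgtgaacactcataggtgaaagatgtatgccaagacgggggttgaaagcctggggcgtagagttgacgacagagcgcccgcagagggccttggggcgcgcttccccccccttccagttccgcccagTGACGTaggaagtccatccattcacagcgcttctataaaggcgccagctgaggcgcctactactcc
Btg2: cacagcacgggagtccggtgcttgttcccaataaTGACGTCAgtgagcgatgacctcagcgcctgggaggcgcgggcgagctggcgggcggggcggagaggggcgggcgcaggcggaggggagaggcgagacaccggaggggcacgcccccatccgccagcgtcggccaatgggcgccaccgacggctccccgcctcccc

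Windows of 250 bases before to 50 after a start were given for 7 of the 10 members (Fos, Fosb, Jun, Junb, Egr2, Atf3 and Btg2), with 5 starts for Egr2 and 1 for each of the others, and were searched on both strands. Egr2 thus had 5 windows in which to match, while the shares of all windows count each window once. A CArG box was found for 1 of the 7 (Egr2), against 1.63% of all 32851 windows, and a full CRE for 1 (Btg2), against 1.79%. The CRE core, which every full CRE contains and which was added after the sequences were read, was found for 4 (Fos, Egr2, Atf3 and Btg2), against 7.51%. An EGR site (GCGNGGGCG with T or G at N) was found for Fosb, from -50 to -42, against 3.47% of windows. An AP-1 site (TGANTCA with C or G at N) was in 0 of the 7 and in 5.2% of windows. These are matches of letters, not measured binding. Only exact matches inside the windows were counted, so a site farther from the start or with a changed letter would be missed.

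Levels are given in CPM, the reads of a gene scaled to the library's size, after TMM scaling over all libraries. Differences are log2 fold changes ± SE from edgeR's quasi-likelihood test, with Benjamini-Hochberg adjustment over all genes tested, and a gene is called at an adjusted p under 0.05. Total counts ran from 21929347 to 25675115 per library. Mbnl1, which checks the labels, stood at 2930 to 4080 CPM in the libraries labelled Tg and at 96.9 to 105 CPM in their controls. In the libraries labelled KO it stood at 219, 102, 167, 115 and 168 CPM at 7 days, against 146 to 153 CPM in controls, and at 115 to 137 CPM at 14 days, against 151 to 170 CPM. The gene total was thus not lower in every library labelled KO at 7 days, and those libraries are called by their label. Libraries 1, 3 and 5 lay above every control in Mbnl1, and libraries 2 and 4 below. Among the 7-day libraries labelled KO, numbers 1 and 5 differed from the other 3 in Esr1, the estrogen receptor gene, with 234 and 195 CPM against 650 to 1890 CPM, and P1 control libraries differed widely from each other in the members. All libraries labelled KO differed from their controls in Esr1 as well as in the label. It stood at 195 to 1890 CPM in KO, against 0.487 to 1.5 CPM in controls, at 7 days, and at 1650 to 1960 CPM in KO, against 0.878 to 1.13 CPM in controls, at 14 days. No other group passed 0.87 CPM. The source of the Esr1 reads is not given in the sources used here, and what goes with them cannot be told apart from the loss of MBNL1 in these comparisons.

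Of the 10 members, 8 were higher in the libraries labelled KO at 7 days, and all 8 had no overlap with controls. At 14 days 8 were higher again, of which 7 had no overlap, and in the libraries labelled Tg all 10 were higher with no overlap. The members called at 7 days and at 14 days were Fos, Jun, Junb, Egr1, Egr2, Egr3, Atf3 and Btg2, and in the Tg comparison Fosb and Ier2 were called as well. No member was called lower in any of these comparisons. Of all genes tested, 26.4% were called higher and 24.3% lower at 7 days, 21.8% and 22.4% at 14 days, and 14.9% and 15.8% in the Tg comparison. Every KO library lay above every control for 23.3% of all genes at 7 days and 24.3% at 14 days, and every Tg library did so for 18% of genes. The members' median log2 fold change was 2.0 at 7 days, 1.34 at 14 days and 1.25 for Tg, against 0.03, 0.01 and 0 over all genes. In bulk tissue, a change in the number of cells of a type and a change in RNA per cell cannot be told apart. These 3 comparisons shared no library.

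**Figure D1:**
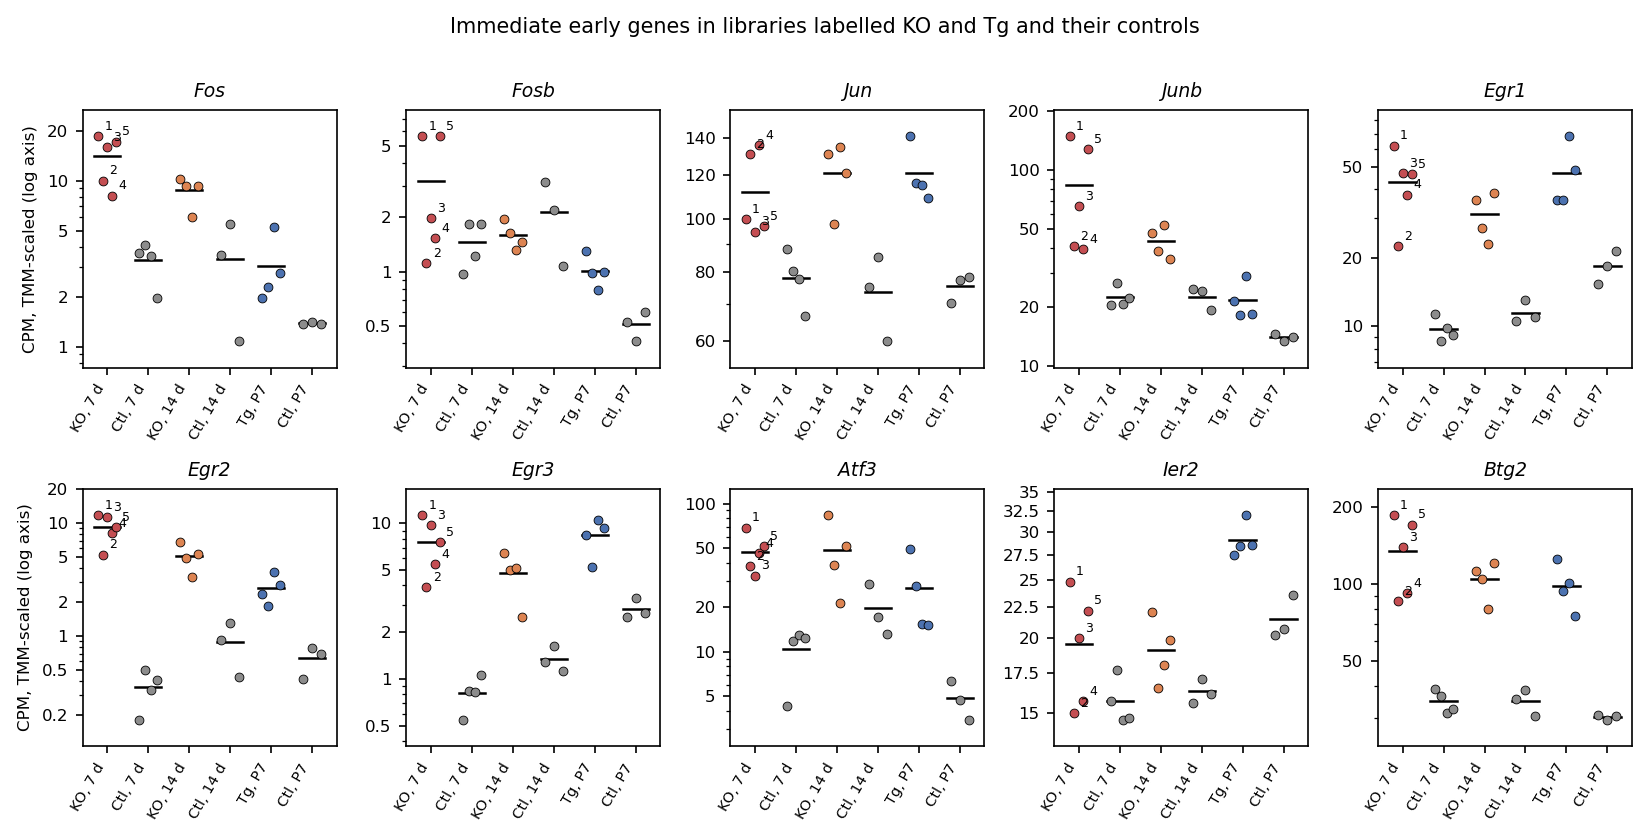
Level of each of the 10 genes in CPM (TMM-scaled, log axis) in each library labelled KO at 7 and 14 days and Tg at P7, each left of its controls. Points are libraries, lines are group means and numbers mark the KO libraries of 7 days; Egr2 stood at 5.29 to 11.8 CPM in KO at 7 days and at 0.182 to 0.502 CPM in the controls.

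Fos (ENSMUSG00000021250, chromosome 12, 85473890 to 85477273, plus strand of GRCm38) encodes the AP-1 subunit that gives the class its best known marker. It stood at 18.5, 10, 16, 8.12 and 17.2 CPM in the libraries labelled KO at 7 days, against 3.65, 4.12, 3.50 and 1.95 CPM in controls. Every KO library was above every control, and libraries 2 and 4 were the lowest of the KO libraries. The log2 fold change was 2.07 ± 0.30 (edgeR adjusted p = 0.000263), a 4.19-fold difference. At 14 days Fos stood at 10.3, 9.31, 6.06 and 9.27 CPM in KO, against 3.57, 5.45 and 1.08 CPM in controls, again without overlap, although control library 6 came near KO library 8. The change was 1.38 ± 0.40 (edgeR adjusted p = 0.0171), and it missed the threshold with all 27 libraries in a single fit (edgeR adjusted p = 0.0673). Tg libraries stood at 1.96, 2.27, 5.26 and 2.76 CPM, against 1.37, 1.41 and 1.37 CPM in controls. The highest Tg library was number 3, the controls were nearly equal, and the change was 1.15 ± 0.30 (edgeR adjusted p = 0.0118).

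Fosb (ENSMUSG00000003545, chromosome 7, 19302696 to 19310051, minus strand), a Fos relative whose protein also forms AP-1 with Jun proteins, was the least abundant member per length in KO at 7 days. It stood at 5.63, 1.12, 1.99, 1.53 and 5.62 CPM there, against 0.973, 1.84, 1.22 and 1.83 CPM in controls. Libraries 1 and 5 lay far above all controls and library 3 just above them, whereas libraries 2 and 4 lay within the controls' range. The change of 1.10 ± 0.52 was not called (edgeR adjusted p = 0.098), and with libraries 1 and 5 left out it was 0.08 ± 0.30. At 14 days Fosb stood at 1.97, 1.64, 1.32 and 1.46 CPM in KO and at 3.14, 2.19 and 1.08 CPM in controls. The groups overlapped and the value of -0.42 ± 0.33 was not called (edgeR adjusted p = 0.335). The libraries labelled Tg stood at 1.31, 0.978, 0.787 and 0.990 CPM, against 0.526, 0.413 and 0.597 CPM, a called change of 0.98 ± 0.26 (edgeR adjusted p = 0.0118). That call was lost without control library 2 (0.85, edgeR adjusted p = 0.0574).

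Jun (ENSMUSG00000052684, chromosome 4, 95049034 to 95052222, minus strand), the classical partner of Fos in AP-1, had smaller changes from a higher base. Its exons overlap the antisense gene Junos, which had 608 counts in all, against 72121 for Jun. At 7 days Jun stood at 100, 131, 94.8, 136 and 97 CPM in KO, against 88.1, 80.3, 77.7 and 66.8 CPM in controls. There was no overlap, and here libraries 2 and 4 were the highest KO libraries, while for Fos they were the lowest. The change was 0.51 ± 0.14 (edgeR adjusted p = 0.011). The 14-day values were 131, 97.8, 135 and 121 CPM in KO, against 75.3, 85.3 and 60.1 CPM, a change of 0.71 ± 0.14 (edgeR adjusted p = 0.00246). In Tg it stood at 141, 116, 115 and 109 CPM, against 70.5, 77.6 and 78.4 CPM in controls, without overlap. That change was 0.68 ± 0.08 (edgeR adjusted p = 4.84e-05).

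Junb (ENSMUSG00000052837, chromosome 8, 84974484 to 84978718, minus strand) encodes an AP-1 subunit that can oppose Jun. Its exons overlap those of Prdx2 on the other strand, which had 183871 counts against 23015 for Junb. The strand setting of the counting was not given in the sources used here, so the values of Junb are uncertain. Prdx2 had means of 207 CPM in KO and 334 CPM in controls at 7 days, and of 255 and 363 CPM at 14 days. In Tg its mean was 283 CPM, against 303 CPM in controls. In KO libraries 1 and 5 of 7 days it stood at 181 and 176 CPM. The part of Prdx2 reads in the Junb counts was not tested. Junb stood at 149, 40.8, 65.6, 39.4 and 128 CPM in KO at 7 days, against 20.5, 26.6, 20.8 and 22.1 CPM in controls. All KO libraries were above all controls, and libraries 1 and 5 held more than the other 3. The change was 1.90 ± 0.40 (edgeR adjusted p = 0.00282), and 1.11 ± 0.18 with libraries 1 and 5 left out. At 14 days it stood at 48, 38.5, 52.3 and 35.2 CPM in KO, against 24.6, 24 and 19.3 CPM, a change of 0.94 ± 0.15 (edgeR adjusted p = 0.000693). Tg libraries stood at 21.4, 18.2, 28.7 and 18.4 CPM, against 14.5, 13.4 and 14.1 CPM, without overlap, a change of 0.63 ± 0.13 (edgeR adjusted p = 0.00311).

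Egr1 (ENSMUSG00000038418, chromosome 18, 34859823 to 34864984, plus strand) encodes a zinc finger factor that responds to growth factors and to mechanical load. It stood at 62, 22.5, 46.9, 37.8 and 46.6 CPM in KO at 7 days, against 11.4, 8.64, 9.88 and 9.17 CPM in controls. Library 2 was the lowest KO library and still lay well above the highest control. The change was 2.13 ± 0.26 (edgeR adjusted p = 8.62e-05). The 14-day values were 36, 27.1, 22.9 and 38.4 CPM in KO, against 10.6, 13 and 11 CPM, a change of 1.42 ± 0.18 (edgeR adjusted p = 0.000158). The libraries labelled Tg stood at 35.9, 36, 68.1 and 48.6 CPM, against 15.3, 18.5 and 21.5 CPM, a change of 1.36 ± 0.20 (edgeR adjusted p = 0.000221). The groups did not overlap at either time or in Tg.

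Egr2 (ENSMUSG00000037868, chromosome 10, 67535475 to 67542188, plus strand), which encodes a factor best known from myelination and immune cells, had the largest fold of the members at both times after knockout. At 7 days it stood at 11.8, 5.29, 11.4, 8.24 and 9.22 CPM in KO, against 0.182, 0.502, 0.333 and 0.414 CPM in controls. In reads, these were 280, 137, 281, 204 and 233 counts in KO and only 3, 9, 6 and 7 counts in controls, so the fold rests on a base near the limit that a count of 0 allows (3 counts). The change was 4.64 ± 0.34 (edgeR adjusted p = 6.16e-06), and 4.51 ± 0.35 with libraries 1 and 5 left out. At 14 days Egr2 stood at 6.82, 4.89, 3.34 and 5.30 CPM in KO, against 0.922, 1.32 and 0.432 CPM, a change of 2.52 ± 0.36 (edgeR adjusted p = 0.000296). In Tg it stood at 2.36, 1.85, 3.68 and 2.86 CPM, against 0.421, 0.791 and 0.702 CPM, a change of 2.07 ± 0.28 (edgeR adjusted p = 0.000118). All 3 comparisons were without overlap.

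Egr3 (ENSMUSG00000033730, chromosome 14, 70077203 to 70082614, plus strand), a close relative of Egr1 and Egr2, followed with the second largest fold at both times. It stood at 11.3, 3.90, 9.75, 5.49 and 7.56 CPM in KO at 7 days, against 0.547, 0.836, 0.832 and 1.06 CPM in controls. The lowest KO library, number 2, was above the highest control, and the change was 3.19 ± 0.36 (edgeR adjusted p = 5.76e-05). At 14 days it stood at 6.46, 5.02, 5.19 and 2.51 CPM in KO, against 1.29, 1.63 and 1.13 CPM, a change of 1.82 ± 0.33 (edgeR adjusted p = 0.0013). Tg libraries stood at 8.38, 5.24, 10.5 and 9.40 CPM, against 2.49, 3.34 and 2.67 CPM in controls. That difference was 1.57 ± 0.21 (edgeR adjusted p = 0.000113), and none of the 3 comparisons overlapped.

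Atf3 (ENSMUSG00000026628, chromosome 1, 191170296 to 191218039, minus strand) encodes a factor induced by many kinds of stress. It stood at 68.9, 38.1, 32.7, 46.5 and 51.5 CPM in KO at 7 days, against 4.32, 11.8, 13 and 12.4 CPM in controls. Control library 1 lay far below the other 3, the groups did not overlap, and the change was 2.18 ± 0.32 (edgeR adjusted p = 0.000298). The 14-day values were 83.6, 38.5, 21.2 and 51.4 CPM in KO, against 28.8, 17.2 and 13.1 CPM, and here the groups overlapped. The change of 1.30 ± 0.41 (edgeR adjusted p = 0.0269) was not called without KO library 6 (0.92), KO library 9 (1.27), control library 6 (1.21) or control library 7 (1.07), or in a single fit of all 27 libraries (1.31). The libraries labelled Tg stood at 49.2, 27.8, 15.5 and 15.1 CPM, against 6.34, 4.75 and 3.47 CPM. There was no overlap, and the change of 2.47 ± 0.39 (edgeR adjusted p = 0.000385) was the largest fold of the members in Tg.

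Ier2 (ENSMUSG00000053560, chromosome 8, 84661331 to 84662852, minus strand) moved least. It stood at 24.8, 15, 20, 15.7 and 22.2 CPM in KO at 7 days, against 15.7, 17.7, 14.6 and 14.7 CPM in controls, with overlap and a change of 0.31 ± 0.16 that was not called (edgeR adjusted p = 0.124). At 14 days it stood at 22.1, 16.5, 18 and 19.8 CPM in KO, against 15.6, 17.1 and 16.1 CPM, with 0.22 ± 0.12 (edgeR adjusted p = 0.146). With total count scaling both were called, at 0.73 and 0.59, as was Fosb at 7 days, at 1.51. In Tg, Ier2 stood at 27.5, 28.4, 32 and 28.6 CPM, against 20.2, 20.7 and 23.6 CPM, without overlap, a called change of 0.44 ± 0.07 (edgeR adjusted p = 0.000505).

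Btg2 (ENSMUSG00000020423, chromosome 1, 134075170 to 134079120, minus strand), also a target of p53, changed by 1.58 to 1.94 in the 3 comparisons. It stood at 186, 86.1, 140, 92.3 and 171 CPM in KO at 7 days, against 39, 36.7, 31.5 and 32.6 CPM in controls. The order of the KO libraries was that of Fosb and Junb at the top, with 1 and 5 highest. The change was 1.94 ± 0.24 (edgeR adjusted p = 9.51e-05). The 14-day values were 113, 105, 80.2 and 121 CPM in KO, against 35.7, 38.6 and 30.6 CPM, a change of 1.58 ± 0.15 (edgeR adjusted p = 1.84e-05). In Tg it stood at 125, 94.1, 101 and 75.2 CPM, against 30.9, 29.5 and 30.6 CPM. That change of 1.70 ± 0.13 had the smallest adjusted p of the members in Tg (edgeR adjusted p = 1.35e-06), and no comparison overlapped.

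**Figure D2:**
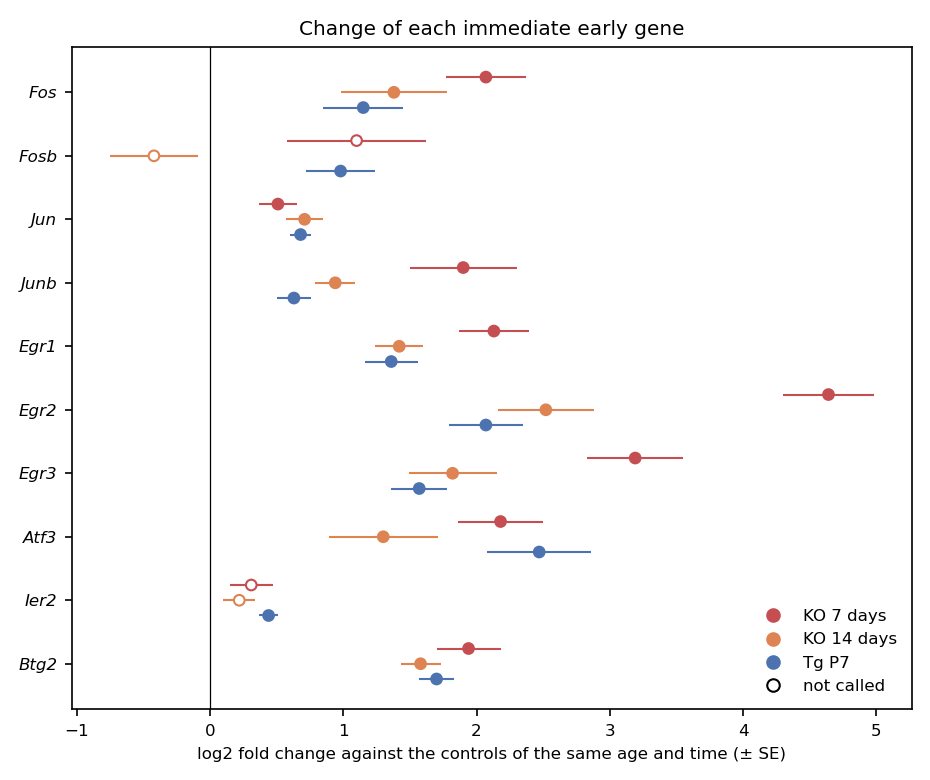
Log2 fold change (± SE) of each gene in KO at 7 days, KO at 14 days and Tg at P7, each against its own controls, with open symbols where the gene was not called. All points lie right of 0 except Fosb at 14 days (-0.42), and Egr2 at 7 days (4.64) lies farthest right.

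Compared per kilobase of exon, the order of the members differed between KO and controls at 7 days. In KO, Btg2 led with a mean of 49.2 CPM per kb, ahead of Junb with 36.7 and Jun with 35.1 CPM per kb. In controls, Jun led with 24.5, ahead of Btg2 with 12.7, Ier2 with 10.3 and Junb with 9.77 CPM per kb. Atf3 followed in both, with 22.1 CPM per kb in KO (behind which came Ier2 with 12.8) and 4.82 in controls. Egr1 had 9.62 CPM per kb in KO and 2.18 in controls, and Fos 5.94 in KO and 1.41 in controls. At the bottom in KO were Egr2 with 2.70, Egr3 with 1.72 and Fosb with 0.509 CPM per kb. In controls the lowest was Egr2 with 0.105 CPM per kb, below Egr3 with 0.186 and Fosb with 0.235. Summed over the 10 genes, the level was 354 to 637 CPM in KO at 7 days, against 163 to 189 CPM in controls. It was 345 to 460 CPM in KO at 14 days, against 154 to 206 CPM, and 311 to 414 CPM in Tg, against 163 to 177 CPM.

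Across the 7 groups, the highest mean was in KO at 7 days for Fos, Junb, Egr2 and Btg2, in P1 controls for Fosb, Jun, Egr1, Atf3 and Ier2, and in Tg for Egr3. Each of these overlapped with the group next in order. The lowest mean was in P7 controls for Fos, Fosb, Junb, Atf3 and Btg2, in the 7-day controls for Egr1, Egr2, Egr3 and Ier2, and in the 14-day controls for Jun. For Junb all libraries of KO at 7 and 14 days lay above every other library. For Fos the KO libraries of both times lay above the controls of P60 and P7 and the Tg libraries, and for Jun the KO libraries of both times and the Tg libraries lay above the controls of P60 and P7. The P1 controls spread across both of these gaps, with libraries 1 and 3 of Fos (4.42 and 2.72 CPM) and library 3 of Jun (80 CPM) below them. For Egr1 the KO, Tg and P1 libraries lay above all P7 controls, and P7 controls in turn did not overlap with the P60 controls of 14 days. For Btg2 each group overlapped with the group next to it in order, since P1 control libraries spread over the whole gap.

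Whether the response differed between the times was tested in the 16 libraries of P60. No member was called, and of all genes 0% were called higher and 0% lower at 14 days than at 7 days by edgeR. Of the 10 members, 9 had a smaller change at 14 days, with a median difference of -0.77, against 0.01 over all genes. The largest was that of Egr2, with -2.10 ± 0.54 (edgeR adjusted p = 0.19, unadjusted p = 0.00133). Egr3 with -1.35 ± 0.52 and Fosb with -1.50 ± 0.69 also had an unadjusted p under 0.05, as did 1662 of 15951 genes. These differences depended in part on KO libraries 1 and 5 of 7 days. With both left out, Egr2 had -1.96 ± 0.58 and Egr3 -1.10 ± 0.52. Fosb then had -0.46 ± 0.46, Junb -0.14 ± 0.25, Btg2 0.01 ± 0.23 and Ier2 0.15 ± 0.17. DESeq2 called Egr2 (-2.13, adjusted p = 0.0218) among 141 genes, and limma-voom called none. The controls of 14 days held more Egr2 than those of 7 days, 0.890 ± 0.443 CPM (SD, n = 3) against 0.358 ± 0.136 CPM (n = 4), a difference of 1.26 ± 0.63 that was not called (edgeR adjusted p = 0.763). Of the 10 members, 0 were called between these 2 control groups and 0 had an unadjusted p under 0.05, where 0.0122% of genes were called higher and 0.0183% lower at 14 days. DESeq2 and limma-voom also called 0 members there.

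In some groups, most clearly in the P1 controls, the members moved together from library to library, while in others they did not. Library 1 labelled KO at 7 days was the highest of its group for 9 of the 10 genes, all but Jun, and library 2 the lowest for 6. P1 control library 2 was the highest of its group for all 10 and library 3 the lowest for 9. Among the 14-day controls, library 7 was the lowest for 8. By contrast, library 1 of the 7-day controls was the highest for 3 and the lowest for 5. As deviations of log2 CPM from the group mean, Tg library 3 lay at 0.87 for Fos and at -0.61 for Atf3. Tg library 1 lay at 1.05 for Atf3 and at -0.52 for Fos. Expressed as the mean deviation of log2 CPM from the group mean, the 10 genes lay at 1.42 in P1 library 2 and at -1.30 in P1 library 3, against -0.06 to 0.03 in the P7 controls. The deviation of each gene correlated with the mean deviation of the other 9 with r between 0.51 (Jun) and 0.92 (Btg2) over the 27 libraries, and with r between 0.19 (Jun) and 0.84 (Btg2) without P1 library 2. Libraries of a group share their age and genotype, and all 10 genes are read from the same libraries, so the r values are descriptions.

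**Figure D3:**
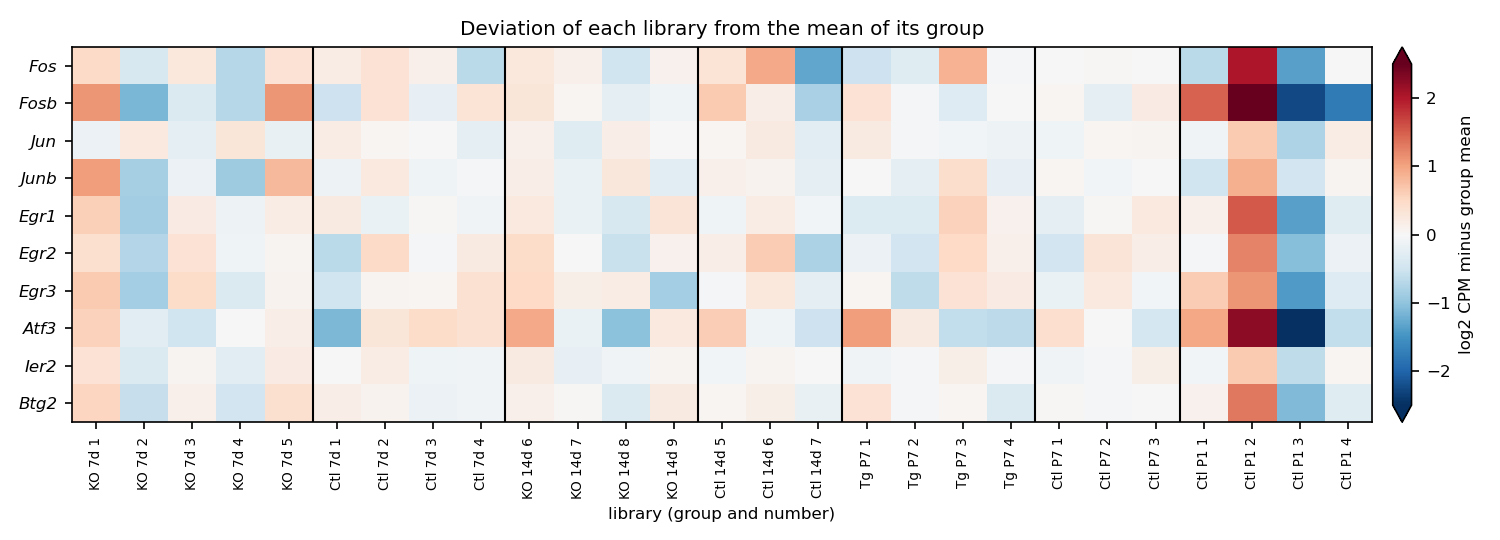
Log2 CPM of each gene (rows) in each library (columns) minus the mean of its group, with vertical lines between groups. P1 control library 2 is red throughout and library 3 blue throughout, with mean deviations of 1.42 and -1.30. In that mean, libraries 1 and 5 labelled KO at 7 days (0.56 and 0.32) lie above the other 3, but not in every gene.

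The genes whose deviations were most like the mean of the members, of 10775 candidates, were Fosl2 (r = 0.92), an AP-1 subunit, Cdr2 (0.91), Anp32e (0.89), a histone chaperone, and Ccn1 (0.88), a matrix-associated signalling protein. Slc16a3, a lactate transporter, Nr4a1, an orphan nuclear receptor, Atf4, Cbfb, Ppa1 and Nppb, the B-type natriuretic peptide, completed the first 10, with r between 0.85 and 0.87. Without P1 library 2 the order began with Cdr2 (0.89), Tnfrsf12a (0.88), Anp32e (0.88) and Atf4 (0.87), and Fosl2 was 17th (0.84). Of the first 10, 4 were kept without that library, and the early genes Ccn1 and Nr4a1 then ranked 157th and 245th. Ranked by Spearman's rho, 2 of the 10 were kept.

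Some heat shock genes were highest in the same libraries of KO at 7 days as Fosb and Junb, while the list moved both ways, with 4 of 12 called higher and 3 lower (median 0.14). Hspb1, a small heat shock protein, made up most of the difference between libraries, with 3120 CPM in libraries 1 and 5 and 533 to 746 CPM in libraries 2, 3 and 4, against 245 to 274 CPM in the controls. Hspa1a, an inducible chaperone, had 50.9 and 39.8 CPM in libraries 1 and 5 and 3.05 to 5.86 CPM in the other 3, against 0.769 to 2.29 CPM. Summed over all 12, the level was 6350 CPM in libraries 1 and 5 and 2560 to 2850 CPM in libraries 2, 3 and 4, against 2640 to 2790 CPM in the controls. Without Hspb1 the sums were 3230 CPM in libraries 1 and 5 and 2030 to 2130 CPM in the other 3, against 2400 to 2510 CPM in the controls. With libraries 1 and 5 left out, the same 8 members were called at 7 days, where 27.3% of all genes were higher and 25.4% lower. Egr1 then changed by 1.87 ± 0.22, Fos by 1.78 ± 0.27, Btg2 by 1.61 ± 0.16, Egr3 by 2.95 ± 0.35, Atf3 by 1.91 ± 0.29 and Jun by 0.63 ± 0.13. At 14 days the heat shock sum was 2650 to 3760 CPM in KO, against 2500 to 3270 CPM in controls, and in Tg it was 2060 to 2160 CPM, against 1630 to 1710 CPM.

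Markers of cell types were also called in these comparisons, higher for some types and lower for others. All 10 macrophage markers were called higher in KO at 7 days, with summed levels of 1120 to 1630 CPM against 421 to 493 CPM, and 9 of 10 at 14 days, with 692 to 1030 CPM against 346 to 544 CPM. In Tg 9 of 10 were higher, with 156 to 201 CPM against 94.7 to 123 CPM. Activated fibroblast markers were higher in 5 of 6 at 7 days (1880 to 3680 CPM in KO, 296 to 346 CPM in controls) and at 14 days (1630 to 2490 CPM in KO, 280 to 470 CPM in controls). In Tg they were higher in 1 and lower in 3 of 6, with 1440 to 1590 CPM against 1730 to 1870 CPM. General fibroblast markers went the other way in Tg, with 5 of 8 higher and 0 lower (4500 to 5330 CPM, against 3670 to 4170 CPM in controls). Of these 8, 4 were higher and 1 lower at 7 days, and 6 higher and 1 lower at 14 days. Cardiomyocyte markers fell in 7 of 8 at both times after knockout, to 16600 to 33400 CPM against 58600 to 64100 CPM at 7 days and to 33600 to 40300 CPM against 63500 to 69000 CPM at 14 days. In Tg their sums overlapped, with 32200 to 39100 CPM against 35300 to 38800 CPM. Neutrophil markers were low in all groups. Their sums were 7.84 to 20.1 CPM in KO, against 2.31 to 9.31 CPM in controls, at 7 days, where 1 of 4 tested was called higher (Csf3r, the receptor of a granulocyte growth factor, 2.20 ± 0.29). At 14 days they were 4.8 to 6.91 CPM in KO, against 2.21 to 3.67 CPM in controls, with 2 of 3 tested called higher. In Tg they were 1.92 to 2.54 CPM, against 1.33 to 2.24 CPM, with 0 of 2 called. Of the 6 listed, Ly6g stood at or under 3 counts in every library of all 7 groups. At 7 days 0 of 7 endothelial markers were higher and 6 lower, and 0 and 6 of 6 erythroid markers. Smooth muscle and pericyte markers were higher in 2 and lower in 4 of 8. At 14 days these 3 lists had 0 and 4, 0 and 1, and 2 and 2, in that order. In Tg they had 1 and 0, 0 and 4, and 3 and 1. Atrial markers were higher in 1 and lower in 1 of 4 at 7 days, in 2 and 0 at 14 days and in 1 and 0 in Tg. Their sums at 14 days were 3370 to 4230 CPM in KO, against 138 to 216 CPM in controls. Lymphocyte markers were higher in 2 of 3 tested at 7 days, 1 of 3 at 14 days and 2 of 4 in Tg, with 0 lower. The part of these cells and of the heat shock genes in the members' changes was not tested.

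The lists around the members were read in the same fits. Of 11 other AP-1 partners tested in KO at 7 days, 5 were higher and 0 lower (median 0.36), with Fosl2 at 0.83 ± 0.24, the small Maf protein Mafk at 0.73 ± 0.25 and Jund at 0.62 ± 0.15. At 14 days 2 of 10 were higher and 1 lower (median 0.22), where Mafk changed by 0.72 ± 0.14, Jund by 0.43 ± 0.13 and Atf2 by -0.25 ± 0.08. In Tg 6 of 10 were higher and 0 lower (median 0.41), led by Fosl2 with 1.06 ± 0.07. Of 39 other early genes, 21 were higher and 6 lower at 7 days (median 0.74). They include Ptgs2, the inducible cyclooxygenase, with 2.65 ± 0.34, Ccn2, a matrix-associated growth factor, with 2.41 ± 0.24, Socs3, an inhibitor of cytokine signalling, with 2.22 ± 0.53 and Myc with 2.06 ± 0.46. At 14 days 16 of 39 were higher and 0 lower (median 0.39), with Ccn2 at 2.74 ± 0.16 and Hbegf, a growth factor of the EGF family, at 2.31 ± 0.25. In Tg 25 of 38 were higher and 2 lower (median 0.40), with Ccn2 at 2.23 ± 0.15, the orphan nuclear receptors Nr4a3 at 1.59 ± 0.20 and Nr4a1 at 1.40 ± 0.11, and Cebpb at 1.38 ± 0.13.

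Feedback inhibitors, the phosphatases, Sprouty and Nab proteins that end the early response and the factors that degrade its mRNAs, were higher in 10 and lower in 3 of 19 at 7 days (median 0.47). Dusp5, a phosphatase of ERK, changed by 1.59 ± 0.32 and Nab2, a corepressor of the EGR proteins, by 1.04 ± 0.18. At 14 days 12 were higher and 0 lower (median 0.50), with Dusp10 at 1.27 ± 0.30 and Dusp5 at 0.98 ± 0.15, and in Tg 7 were higher and 2 lower (median 0.14), with Dusp8 at 0.70 ± 0.11 and Dusp10 at -0.46 ± 0.09. The genes Dusp1, Zfp36 and Zfp36l1 of this list are also among the other early genes. The kinases and factors upstream, among them Srf, Creb1 and the ERK and p38 kinases, were higher in 5 and lower in 3 of 22 at 7 days, in 3 and 2 at 14 days and in 4 and 4 in Tg, with medians of 0.07, 0.10 and 0.02. Rps6ka5, which encodes the kinase MSK1, was lower in all 3, with -1.12 ± 0.20, -0.80 ± 0.13 and -0.45 ± 0.10. With total count scaling the upstream list had 16 higher and 1 lower at 7 days and 15 and 2 at 14 days.

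The relatives of Btg2 were higher in 1 and lower in 1 of 4 at 7 days, with Btg1 at 1.08 ± 0.16 and Tob2 at -0.64 ± 0.16. They were higher in 3 and lower in 1 at 14 days, and higher in 2 in Tg, where Tob1 changed by 0.39 ± 0.05. Of 12 p53 targets, 4 were higher and 2 lower at 7 days, 3 higher and 4 lower at 14 days, and 10 higher and 0 lower in Tg. Cdkn1a, the cell cycle inhibitor p21, changed by 1.48 ± 0.07 in Tg. At 7 days Phlda3 changed by 1.96 ± 0.18 and Sesn1 by -1.45 ± 0.24. Of 11 genes of the integrated stress response, in which Atf3 also takes part, 4 were higher and 2 lower at 7 days and at 14 days, and 8 higher and 0 lower in Tg. Gdf15, a stress-induced cytokine, changed by 2.73 ± 0.25, 2.28 ± 0.33 and 3.35 ± 0.22 in the 3 comparisons, in that order. Vldlr of the same list changed by -1.93 ± 0.26 at 7 days and -1.56 ± 0.10 at 14 days. The list's sum was 396 to 507 CPM in KO at 7 days, against 713 to 832 CPM in controls. It was 466 to 567 CPM in KO at 14 days, against 633 to 894 CPM, and 482 to 527 CPM in Tg, against 374 to 401 CPM. Of the 12 heat shock genes, 4 were higher and 3 lower at 7 days, where Hspa1a had 3.98 ± 0.96, 4 and 4 at 14 days, and 6 and 0 in Tg.

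**Figure D4:**
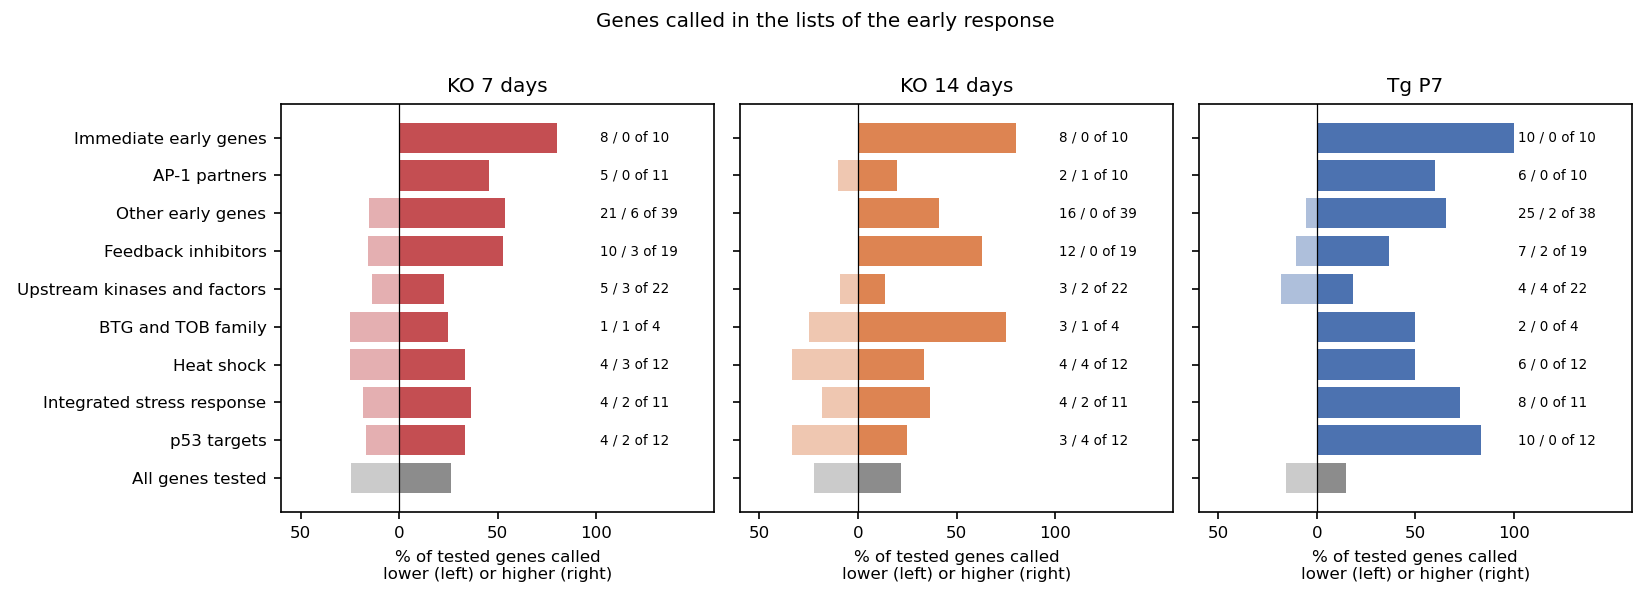
Share of the tested genes that was called higher (right of 0) or lower (left of 0, pale) in KO at 7 days, KO at 14 days and Tg at P7, with all genes tested in grey and the counts higher / lower of tested at the right. Among the 9 lists plotted, which leave out the cell type markers, the immediate early genes have the longest bar to the right in each panel, 8, 8 and 10 of 10. Members and lists were chosen with earlier results of these data known, so this order is a description only.

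With total count scaling the median of all genes moved to 0.45 at 7 days and 0.39 at 14 days, and 83.5% and 81.9% of the calls were higher, against 4001 higher and 3692 lower calls at 7 days and 3272 and 3351 at 14 days with TMM. The 8 members called at each time were called in the same direction under it. The members' median was then 2.42 at 7 days and 1.72 at 14 days. In the Tg comparison the median of all genes was -0.02 and all 10 members stayed called. A single fit of all 27 libraries called 4 of the 10 in Tg (Egr2, Egr3, Atf3 and Btg2), with nearly the same fold changes and larger errors. Of 17261 genes in that fit, 511 were called higher and 462 lower in Tg. In that fit the Tg counts of the lists were also lower, with 3 higher and 1 lower of 39 other early genes, 4 of 12 p53 targets and 3 of 11 genes of the integrated stress response higher, 2 of 11 AP-1 partners higher, 1 of 12 heat shock genes higher and 0 of 19 feedback inhibitors called.

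Between P1 and P7 the members were lower in P7 controls. In all, 7 of the 10 were called lower (Fos, Fosb, Jun, Egr1, Egr2, Atf3 and Btg2) and 0 higher, where 11.2% of all genes were lower and 12.3% higher. The 4 genes Fos, Jun, Egr1 and Egr2 did not overlap, and 15% of all genes lay in the same way below P1. The P7 controls are those given with the Tg libraries above. The P1 libraries 1 to 4 held 4.42, 29.4, 2.72 and 7.13 CPM of Fos, 8.19, 17.5, 0.543 and 0.793 CPM of Fosb and 61.4, 149, 5.18 and 20.6 CPM of Atf3. Library 2 was the highest and library 3 the lowest of each. The log2 difference of P7 minus P1 was -2.96 ± 0.72 for Fos, -3.69 ± 0.98 for Fosb and -3.58 ± 0.83 for Atf3, with edgeR adjusted p of 0.00867, 0.0139 and 0.00622.

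Egr1 stood at 68.1, 180, 24.4 and 50.2 CPM in the P1 libraries, all above the P7 controls, with a difference of -2.11 ± 0.46 (edgeR adjusted p = 0.00416). Egr2 stood at 1.74, 4.27, 0.799 and 1.59 CPM (-1.70 ± 0.49, edgeR adjusted p = 0.0216) and Jun at 129, 214, 80 and 156 CPM (-0.93 ± 0.23, edgeR adjusted p = 0.00831). In both, library 3 lay just above the highest P7 control. Btg2 stood at 69.6, 162, 30 and 52.3 CPM (-1.36 ± 0.38, edgeR adjusted p = 0.0172), where library 3 lay inside the P7 range. Junb, with 11.7, 30.7, 11.9 and 17.4 CPM, Egr3, with 5.87, 8.08, 1.34 and 2.97 CPM, and Ier2, with 29.1, 47.4, 19.4 and 31.2 CPM, were not called. Their differences were -0.35 ± 0.25, -0.68 ± 0.41 and -0.56 ± 0.20. Library 3 lay below all P7 controls in Junb, Egr3 and Ier2, and so did library 1 in Junb.

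The size of the age difference depended on the P1 libraries. Without library 2 the difference was -1.78 ± 0.45 for Fos, -2.62 ± 0.83 for Fosb, -2.58 ± 0.66 for Atf3, -1.37 ± 0.26 for Egr1 and -0.74 ± 0.21 for Btg2, Egr2 was no longer called (-1.10 ± 0.39, edgeR adjusted p = 0.0652) and Junb turned to 0.03. With libraries 3 and 4 left out, 9 of the 10 were called, where 17.9% of all genes were lower and 16.8% higher. Libraries 3 and 4 had the lowest mean deviations of the members at P1 (-1.3 and -0.32). Leaving them out thus raises the P1 level, and the larger count follows in part from that choice. With the P1 and P7 libraries alone in the fit 4 were called, where 8.63% of all genes were lower and 9.38% higher. With limma-voom 3 were called. Leaving out any 1 of the 3 P7 controls gave 4. Without P7 control 1, 1093 of 16694 genes were lower and 1443 higher. Without P7 control 2, 1074 of 16681 were lower and 1434 higher. The shares of all genes called with limma-voom and without P7 control 3 are not given here, so those counts of members are descriptions only. Other early genes were lower in 14 and higher in 3 of 39 (median -0.38), led by Ccn2 with -3.38 ± 0.53, Nr4a1 with -3.19 ± 0.73 and the clock gene Per1 with -2.42 ± 0.35. Heat shock sums ran from 1630 to 1710 CPM at P7 and from 1760 to 1930 CPM at P1, with 1900 CPM in library 2 and 1890 CPM in library 3. The neutrophil sum was 1.33 to 2.24 CPM at P7 and 4.14 to 11 CPM at P1, and 4 of 5 such markers were lower at P7. Their part in the members' difference was not tested.

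From P7 to P60, members went in both directions. In the fit of all 14 controls Junb was higher at P60 (0.68 ± 0.24, edgeR adjusted p = 0.0184), Egr3 was lower (-1.43 ± 0.40, edgeR adjusted p = 0.00547) and Ier2 was lower (-0.43 ± 0.18, edgeR adjusted p = 0.0422), where 33.3% of all genes were higher and 36% lower. With the P60 and P7 controls alone, so that the spread of the P1 libraries did not enter, 7 were called, 4 higher and 3 lower, where 35.9% of all genes were higher and 38.8% lower. The members' share called is thus near that of all genes. Fos (1.23 ± 0.36), Fosb (1.75 ± 0.34), Junb (0.66 ± 0.10) and Atf3 (1.53 ± 0.32) were then higher at P60, and Egr1 (-0.82 ± 0.11), Egr3 (-1.45 ± 0.19) and Ier2 (-0.46 ± 0.08) lower. Total count scaling moved the median of all genes to -0.65, and under it Junb was 0.08 and not called, Jun turned to -0.61 and Btg2 to -0.41. The mean levels at P60 were 10.5 CPM of Egr1 and 1.05 CPM of Egr3, against 18.4 and 2.83 CPM at P7. They were 14.4 CPM of Atf3 and 22.5 CPM of Junb, against 4.85 and 14 CPM at P7.

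**Figure D5:**
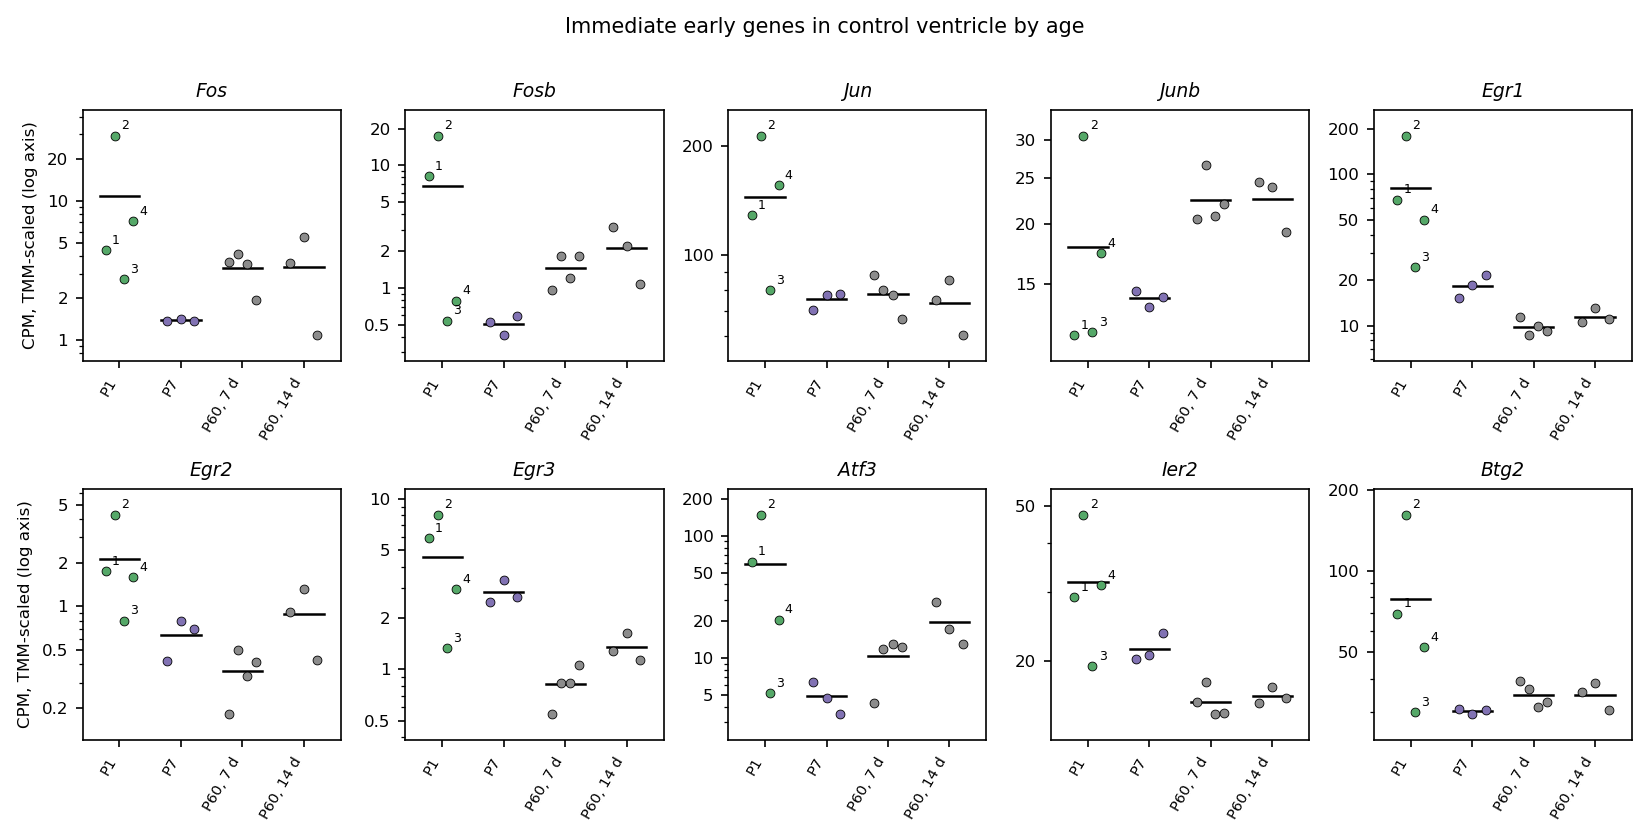
Level of each gene in CPM (TMM-scaled, log axis) in each control library at P1, P7 and P60 (7-day and 14-day controls), with lines at group means and numbers at the P1 libraries. P1 library 2 is the highest P1 library in every panel, such as Fos with 29.4 CPM beside 2.72 to 7.13 CPM in the other 3.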

How the data were processed

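Per the labels' protocols, total RNA of ventricle was extracted with TRIzol and a Qiagen RNeasy kit, and BGI made the libraries on its DNBseq platform. The deposited table holds counts, whole reads per gene and library. Per the submitters' processing notes, the authors' tools include STAR, featureCounts, DESeq2 and Salmon and the build is GRCm38 (mm10), with no role or version. The annotation release and strand setting are not given in the sources used here. Symbols, exons and coordinates came from GENCODE M21 (GRCm38), which held 55227 of the identifiers and lacked 260.

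Counts were filtered with filterByExpr, scaled by TMM and tested with edgeR 4.0.16 (glmQLFit and glmQLFTest) in R 4.3.3, after a check on simulated counts. Benjamini-Hochberg adjustment ran over all genes tested, and all 10 members passed the filter in every comparison. The KO and Tg fits held only the groups compared, the test between times 16 libraries, and control ages all 14 controls. SE is the absolute log2 fold change over the root of F. Alternatives were total count scaling, RLE size factors, DESeq2 1.42.0, limma-voom (limma 3.58.1), no low-count filter, all 27 libraries in a single fit, the replicate block, leaving out libraries and, added after the data were seen, only the groups of the control comparisons. Likeness used within-group deviations of log2 CPM (prior count 2). All members are named; from each list at most 4 called genes per comparison, those with the largest changes at a mean of at least 5 CPM. Members and lists were chosen with earlier results of these data known. A count of 0 allows up to 3 counts, a limit that covers counting error only. The deviations of same-numbered libraries had correlations from -0.207 to 0.0818, and the numbers were used as pairs only in the replicate block. Whether same-numbered libraries share an origin was not tested.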

Additional observations from a re-analysis of the deposited data

Results flagged for a closer look

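Of 50 pairs of a member and a group of 4 or 5 libraries, 2 held a library far from the others by Dixon's test, where chance gives about 1 in 20. Fos stood at 29.4 CPM in P1 control library 2, against 7.13 CPM in the next library and 2.72 CPM in the lowest. Without this library the difference of P7 minus P1 in Fos was -1.78 ± 0.45 and still called. Atf3 stood at 4.32 CPM in 7-day control library 1, below the other 3 controls with 11.8 to 13 CPM. Every KO library at 7 days, with 32.7 to 68.9 CPM, was above all 4 of those controls.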

How the results depend on the processing

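Called members kept their direction in every alternative, and calls were lost 6 times at 14 days, 7 times in Tg, 17 times for P7 against P1 and 17 times for P60 against P7; in KO at 7 days none was lost. A single fit of all 27 libraries called 4 members and 973 genes in Tg. For P7 against P1, limma-voom called 3 members and the fit of those groups alone 4. For P60 against P7, no low-count filter gave 6 and the groups alone 7. The shares of all genes called are not given here for that limma-voom fit or for the fit with no filter, so their counts of members are descriptions only. For the difference between times, DESeq2 called 1 member and 141 genes, against 0 by edgeR, 2 genes with total count scaling, 13 with no filter, 52 in the single fit and 3 without KO libraries 1 and 5, where Ier2 turned to 0.15 and Btg2 to 0.0056. Between the P60 controls, with 5 genes called, DESeq2 called 72, no filter 37, the single fit 3 and the groups alone 3. There Fos turned to 0.0099 (DESeq2) and 0.0096 (single fit) and Junb to 0.0074 (single fit). Jun for P60 against P7 turned to -0.61 with total count scaling, -0.0076 with limma-voom, -0.042 with no filter and -0.021 with the groups alone, and Btg2 to -0.41 with total count scaling. The causes were not tested.

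Leaving out 1 library at a time gave these ranges. Members called ran from 8 to 10 in KO at 7 days, 7 to 8 at 14 days, 9 to 10 in Tg, 4 to 9 for P7 against P1 and 1 to 3 for P60 against P7. Genes called, of all tested, ran from 6685 to 7610 in KO at 7 days, 5132 to 7256 at 14 days and 3717 to 4486 in Tg. They ran from 2508 to 4492 for P7 against P1 and 10417 to 11468 for P60 against P7. For the difference between times they ran from 0 to 21 (21 without KO library 2), and between the P60 controls from 2 to 7. Ier2 ran from -0.15 to 0.035 for the difference between times, Junb from -0.51 to 0.032 for P7 against P1 and Jun from -0.052 to 0.066 for P60 against P7. Between the P60 controls Fos ran from -0.54 to 0.43, Jun from -0.22 to 0.021, Junb from -0.065 to 0.093 and Btg2 from -0.086 to 0.069. With the replicate block 8, 8 and 10 members were called in the KO and Tg comparisons, and Fosb at 14 days turned to 0.18. Only numbers held by both groups bear on these contrasts. They are 1 to 4 at 7 days, only 6 and 7 at 14 days, and 1 to 3 in Tg. Among controls the block was fitted without the 14-day controls. It called 7 members for P7 against P1 and 2 for the 7-day controls against P7, which is not the P60 average used elsewhere. The shares of all genes called with the block are not given here. The 2 P60 control groups share no number, so no block could be fitted there. The low counts of Egr2 in controls limit the precision of its fold.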
